A study of Mus musculus with 8 samples.

Results

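Immediate early genes are the first genes that cells transcribe after a growth factor, cytokine or stress signal. The members were followed here across mouse tumour cells sorted by the activity of a replication gene promoter. The 10 members are Fos, Fosb, Jun, Junb, Egr1, Ier2, Atf3, Zfp36, Btg2 and Dusp1, out of 18193 genes named on the array. They were chosen by symbol, and every probe set that the platform annotation assigns to one of these symbols was taken, 12 of 45101 in all. Jun and Btg2 had 2 probe sets each and the other members 1. All 10 genes passed the filter on low signal, a log2 value above 5 on at least 2 arrays, which 12177 genes passed.

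The tumour lines were Lewis lung carcinoma (LLC), from a mouse lung tumour, and colon26, from a mouse colon tumour. Both stably carried enhanced green fluorescent protein (EGFP) under the mouse PSF1 promoter. PSF1 is the protein of Gins1, part of the GINS complex of DNA replication forks. The lines, LLC-PSF1P-EGFP and colon26-PSF1P-EGFP, were grown under the skin of mice and taken at 4 weeks for LLC and 2 weeks for colon26. Tumours were dissociated and sorted by flow cytometry into PSF1-low and PSF1-high cells, called EGFP-low and EGFP-high below. There were 4 groups of 2 arrays, which the labels number 1 and 2 and call biological replicates. All groups shared the reporter, growth under the skin of mice, the dissociation and the sort, and no unsorted or cultured cells were analysed here. Host strain, number of mice or clones, and any gate against host or dead cells were not stated in these sources. The labels also do not say whether replicates came from separate tumours, so p-values measure the spread between these arrays, which may be technical. Line and time of growth cannot be told apart. The description field of every colon26 sample says LLC, but title, source and cell line say colon26 and were followed.

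The members have known roles in one circuit. Signals through the ERK, p38 and JNK kinases act on factors already present in the cell, such as SRF with its ETS partners and CREB, and these switch the genes on within minutes without new protein. Fos, Fosb, Jun and Junb encode subunits of the dimeric factor AP-1, and Atf3 encodes a related bZIP factor induced by stress. Egr1 encodes a zinc finger factor and Ier2 a nuclear protein of the early response. Zfp36 (tristetraprolin) speeds the decay of AU-rich mRNAs, Btg2 encodes an antiproliferative protein that recruits deadenylases, and Dusp1 encodes a phosphatase that switches off MAP kinases. Their mRNAs are short-lived, and tissue dissociation and sorting can themselves induce these genes. That contribution was not tested, since no array preceded dissociation.

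Gins1 rose in EGFP-high cells by 1.28 in LLC (SE 0.21, limma adjusted p = 0.00334) and by 1.07 in colon26 (SE 0.21, limma adjusted p = 0.0168), in the direction of the sort labels. The arrays numbered 1 and 2 stood apart in RNA representation. The median 3′ minus 5′ signal of control probe sets was 2.55 ± 0.13 (SD, n = 4) on the log2 scale for the arrays numbered 1 and 0.18 ± 0.15 (SD, n = 4) for those numbered 2. Same-numbered arrays deviated together in all groups, with r across genes from 0.74 to 0.89, so EGFP-high and EGFP-low cells were compared within pairs of one line and number. Of the colon epithelium list, Krt8 was at 12.36 to 12.80 in LLC and 5.31 to 5.95 in colon26, whereas Krt20 was at 11.60 to 12.27 in colon26 and 3.63 to 4.06 in LLC. Krt18, of the same list, was at 8.43 to 9.14 in LLC and 3.84 to 5.05 in colon26. Of 12 listed lung epithelium markers 8 were under 5 on every array (Cdh1, Cldn18, Krt7, Nkx2-1, Scgb1a1, Sftpa1, Sftpc and Sftpd), and Epcam and Sftpb were above 5 on every array, at 5.99 to 7.18 and 5.14 to 5.82. Of 12 listed colon epithelium markers 7 were under 5 on every array (Cdh1, Cdx1, Gpa33, Krt19, Lgals4, Muc2 and Vil1), and Cdx2 (5.08 to 5.62), Epcam and Krt8 were above 5 on every array. These epithelial markers were named after their values were seen.

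Promoter sequence is shown for 5 of the 6 members that fell in EGFP-high LLC cells. Short motifs near the start take part in the control of such genes. RefSeq windows of the assembly GRCm38.p6, from 250 bases before to 50 after the start, were searched for 8 members. Ier2 had no entry, and the Egr1 window was not searched. The 200 bases before the start lie at chr12:85473690-85473889 on the plus strand for Fos and at chr7:19310046-19310245 on the minus strand for Fosb. They lie at chr7:28379229-28379428 for Zfp36, chr1:134079156-134079355 for Btg2 and chr17:26508473-26508672 for Dusp1, all on the minus strand. Each reads 5′ to 3′ on the gene's strand and ends at the base before the start, and capitals mark matches on either strand to the cAMP response element (TGACGTCA) or its short form (TGACG), the EGR site (GCGGGGGCG), the CArG box or the TATA box (TATAAA).
Fos: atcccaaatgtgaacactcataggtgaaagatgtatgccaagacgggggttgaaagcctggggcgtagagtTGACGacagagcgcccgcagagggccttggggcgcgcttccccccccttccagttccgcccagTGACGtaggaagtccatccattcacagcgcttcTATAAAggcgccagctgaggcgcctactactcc
Fosb: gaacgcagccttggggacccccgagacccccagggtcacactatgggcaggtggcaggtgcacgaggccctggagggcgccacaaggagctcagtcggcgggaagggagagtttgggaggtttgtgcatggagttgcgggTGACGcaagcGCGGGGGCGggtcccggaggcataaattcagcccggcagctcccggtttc
Zfp36: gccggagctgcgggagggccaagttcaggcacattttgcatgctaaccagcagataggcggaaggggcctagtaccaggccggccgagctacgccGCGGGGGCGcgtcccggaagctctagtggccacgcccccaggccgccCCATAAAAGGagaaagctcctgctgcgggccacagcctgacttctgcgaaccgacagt
Btg2: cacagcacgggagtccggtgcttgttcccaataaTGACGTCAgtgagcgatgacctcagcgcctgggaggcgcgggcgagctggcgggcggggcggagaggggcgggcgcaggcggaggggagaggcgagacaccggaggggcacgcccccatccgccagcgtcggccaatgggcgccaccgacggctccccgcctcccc
Dusp1: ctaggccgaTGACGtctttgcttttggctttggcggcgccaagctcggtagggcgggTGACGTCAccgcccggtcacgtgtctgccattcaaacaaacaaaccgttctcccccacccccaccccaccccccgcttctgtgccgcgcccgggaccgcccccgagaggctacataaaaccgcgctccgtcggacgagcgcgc

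The full cAMP response element, bound by CREB, was in the windows of Btg2 and Dusp1, beginning at positions −166 and −143 from the start, and in 1.79% of all 32851 windows. Its short form, which the full element contains, was in 6 of the 8 members (Atf3, Btg2, Dusp1, Fos, Fosb and Junb) and in 20.8% of all windows. The CArG box, the core that SRF binds, was found in Zfp36 alone of the 8, against 1.63% of all windows. The EGR site was in Fosb and Zfp36, against 2.91%. Zfp36 also held the ETS core (CCGGAA), against 14.9%, and Fos and Junb held the TATA box letters, against 13.6%. These letters lay at −33 to −28 in Fos but at 1 to 6, from the start onwards, in Junb. The NF-kB site was in 5 of the 8, against 20.7%, overlapping the EGR site in Fosb and in Zfp36. The AP-1 site (TGANTCA) was in none of the 8 windows, against 7.81% of all. A match is only a description of these letters in this window, and Jun held none of the motifs. Sequence outside the windows was not searched, so a motif absent here may still lie elsewhere near the gene.

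In LLC tumours the EGFP-high cells had less immediate early mRNA than the EGFP-low cells. Fos, Fosb, Egr1, Zfp36, Btg2 and Dusp1 fell, 6 of the 10 members at a limma adjusted p under 0.05, and none rose. Across all genes tested, 6.04% were called lower and 11.0% in either direction. All 10 members, and all 12 probe sets, were lower in EGFP-high cells in both LLC pairs, as were 32.3% of all genes. The median change of the members was −0.79 on the log2 scale, beside 0.04 for all genes. In bulk RNA, fewer cells that express a gene and less RNA per cell cannot be told apart.

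**Figure D1:**
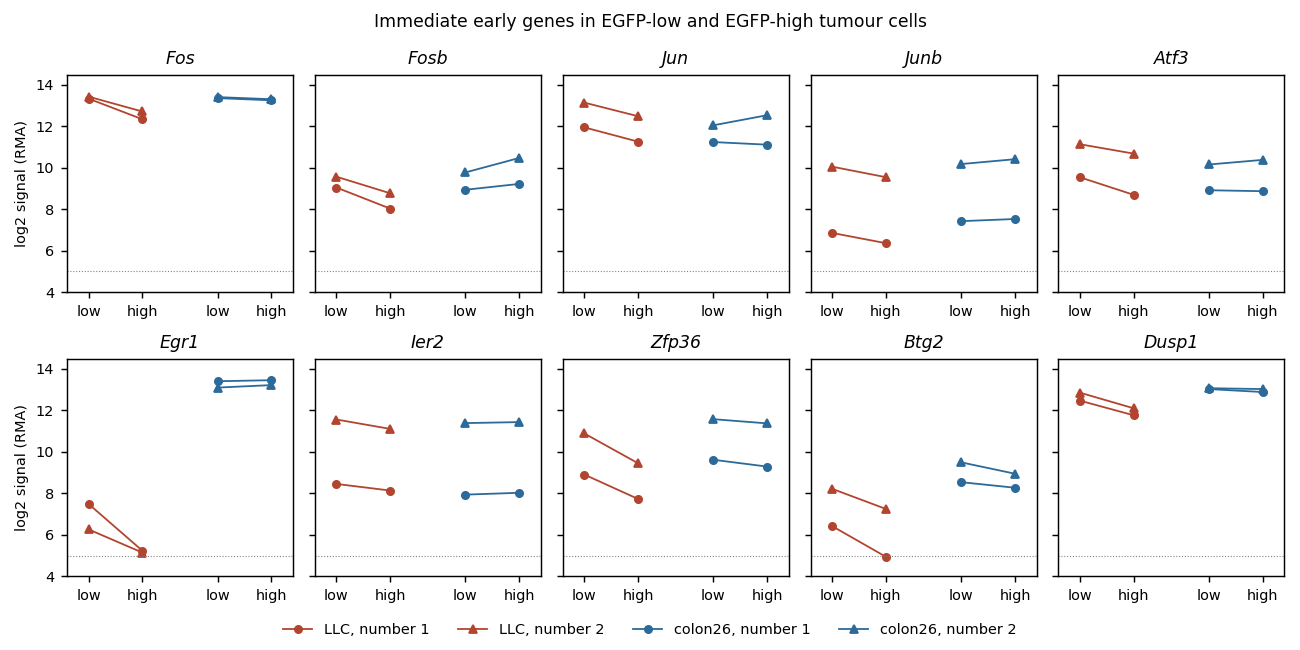
Log2 RMA signal of the 10 members on each of the 8 arrays, with a line joining the EGFP-low and EGFP-high array of each pair, circles for number 1 and triangles for number 2, and a dotted line at the filter of 5. All red lines (LLC) fall from low to high. The blue lines (colon26) are nearly flat for some members, rise for others such as Fosb, and fall for Zfp36 and Btg2. Number 2 lies far above number 1 for Junb and Ier2.

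Among the AP-1 subunits, Fos had log2 signals of 13.34 and 13.43 on the EGFP-low arrays numbered 1 and 2 and of 12.34 and 12.72 on the EGFP-high arrays. The groups did not overlap, and Fos fell by 0.86 (SE 0.18, limma adjusted p = 0.0129), to 0.553 of its EGFP-low level. Fosb, a close relative of Fos, was at 9.05 and 9.57 in EGFP-low and at 8.03 and 8.77 in EGFP-high cells. Its groups did not overlap either, and it fell by 0.91 (SE 0.19, limma adjusted p = 0.0124), to 0.533. Jun, the partner of Fos in AP-1, was at 11.95 and 13.15 in EGFP-low and 11.26 and 12.49 in EGFP-high cells. Each pair was lower, by similar amounts, but the groups overlapped, and the change of −0.67 (SE 0.20, limma adjusted p = 0.0568) did not pass the threshold. The other Jun probe set, at 12.41 and 11.47 against 11.68 and 10.66, changed by −0.77 and passed when each probe set was its own unit, where 9.44% of all probe sets were called (limma adjusted p = 0.0335, against 0.0730 for the first). Junb was at 6.86 and 10.06 in EGFP-low and 6.36 and 9.55 in EGFP-high cells. Its groups overlapped almost wholly, and its change of −0.50 (SE 0.18, limma adjusted p = 0.101) did not pass. Atf3 was at 9.54 and 11.14 against 8.70 and 10.68, and its change of −0.65 (SE 0.19, limma adjusted p = 0.0544) did not pass.

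Egr1 had the largest fall of the 10. Its signals were 7.49 and 6.26 in EGFP-low and 5.24 and 5.14 in EGFP-high LLC cells, so that the EGFP-high arrays lay just above the filter of 5, at the 55.4 and 55.5 percentiles of all probe sets. It fell by 1.69 (SE 0.25, limma adjusted p = 0.00216), to 0.310, without overlap, by 2.26 in the pair numbered 1 and by 1.12 in the pair numbered 2. Ier2 was at 8.45 and 11.56 in EGFP-low and 8.13 and 11.11 in EGFP-high cells. Its change of −0.39 (SE 0.18, limma adjusted p = 0.205) was the smallest of the 10 and did not pass.

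The 3 members that restrain the response all fell. Zfp36 was at 8.91 and 10.89 in EGFP-low and 7.73 and 9.45 in EGFP-high cells. The groups overlapped because the arrays numbered 2 were higher, but the pairs fell by 1.18 and by 1.44, and the mean change was −1.31 (SE 0.18, limma adjusted p = 0.00151), to 0.404. Btg2 was at 6.42 and 8.22 against 4.94 and 7.25, also with overlap, and fell by 1.23 (SE 0.20, limma adjusted p = 0.00325), to 0.427. Its other probe set, at 5.96 and 5.88 against 5.50 and 5.33, changed by −0.51 and did not pass (limma adjusted p = 0.141 with each probe set as its own unit). Dusp1 was at 12.47 and 12.85 against 11.76 and 12.10. Its groups did not overlap, and it fell by 0.73 (SE 0.18, limma adjusted p = 0.0247), to 0.603. In all, 4 of the 10 members (Fos, Fosb, Egr1 and Dusp1) had both EGFP-high arrays below both EGFP-low arrays, as did 14.6% of all genes.

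These calls rest on the pairing and on both pairs. Without the pair block no member was called, and neither was any other of the 12177 genes tested. Without the LLC pair numbered 1, Egr1 and Zfp36 were still called; without the pair numbered 2, Egr1, Zfp36 and Btg2 were. With the number shared by the lines as the block, Btg2 missed the threshold at a limma adjusted p of 0.0865. Without either colon26 pair, or with the LLC arrays fitted alone, Egr1 missed the threshold at a limma adjusted p of 0.0529.

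Markers of other cell types moved with the sort, beside 11.0% of all genes called in LLC in either direction. In LLC, 11 of 15 tested macrophage markers fell (median −1.12), with a log2 summed signal of 11.39 to 11.50 in EGFP-low and 9.87 to 10.03 in EGFP-high cells, and Cd163 and Itgam were under 5 in both. Of 12 fibroblast markers 10 fell (median −1.74), from 15.04 to 15.65 in EGFP-low to 13.48 in EGFP-high cells. Of the neutrophil markers 2 of 4 fell and of the pericyte markers 1 of 5. None of 9 endothelial, 5 lymphocyte, 2 muscle, 3 keratinocyte, 5 colon epithelium or 4 lung epithelium markers was called, and the 3 named erythroid markers were under 5 on both arrays of every group. All 11 tested mitosis genes rose (median 2.02). The part of these cells and of cell cycle in the members' changes was not tested.

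In colon26 tumours the same comparison called none of the 10 members, against 3.77% of all genes. Only Fosb had an unadjusted p under 0.05 in limma, as did 16.5% of all genes. Without the pair block the number called was also 0, where 0.0246% of all genes were called. The members' median change was 0.08, the same as that of all genes. Fos, Zfp36, Btg2 and Dusp1 were lower in EGFP-high cells in both pairs (4 of 10, against 20.4% of all genes), and Fosb, Junb, Egr1 and Ier2 were higher in both (4 of 10, against 39.7%), with Ier2 turning to −0.06 in the fit under quantile normalization. Jun and Atf3 differed in sign between the pairs.

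The AP-1 subunits showed no shared direction in colon26. Fos was at 13.36 and 13.41 in EGFP-low and at 13.26 and 13.31 in EGFP-high cells. The EGFP-high arrays were both the lower, the only member so separated, as in 9.02% of all genes, by a change of −0.10 (SE 0.18, limma adjusted p = 0.806). Fosb was at 8.94 and 9.78 against 9.22 and 10.48, higher in both pairs with overlapping groups, by 0.49 (SE 0.19, limma adjusted p = 0.230). Jun was at 11.24 and 12.05 against 11.12 and 12.54, and its other probe set was at 11.18 and 10.28 against 11.05 and 10.50. Both Jun probe sets were slightly lower in the pair numbered 1 and higher in the pair numbered 2. Junb was at 7.43 and 10.18 against 7.53 and 10.42. Atf3 was at 8.92 and 10.16 against 8.87 and 10.38. Their changes of 0.18 for Jun, 0.17 for Junb and 0.09 for Atf3 were all below the threshold of the test, and Atf3 turned to −0.05 under quantile normalization.

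Egr1 was at 13.41 and 13.10 in EGFP-low and 13.46 and 13.22 in EGFP-high colon26 cells, a change of 0.08 (SE 0.25, limma adjusted p = 0.890). Its groups overlapped, at a level far above that in LLC. Ier2 was at 7.94 and 11.39 against 8.03 and 11.44, a change of 0.07 (SE 0.18, limma adjusted p = 0.873). Of the restraining members, Zfp36 was at 9.62 and 11.58 against 9.29 and 11.37. Its change of −0.27 (SE 0.18, limma adjusted p = 0.489) did not pass. Btg2 was at 8.54 and 9.49 against 8.27 and 8.95, a change of −0.41 (SE 0.20, limma adjusted p = 0.334), and its other probe set at 9.47 and 9.79 against 9.11 and 9.83. Dusp1 was nearly level, at 13.03 and 13.07 against 12.89 and 13.03. The 95% intervals of the 10 changes reached from −0.85 for Btg2 to 0.91 for Fosb. Each is unadjusted and measures the spread between these arrays, which may be technical, so larger changes are not excluded either.

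Markers of macrophages, fibroblasts and some other cell types fell in colon26 as well, where 3.77% of all genes were called in either direction. Whether host or tumour cells made these RNAs was not tested. Of 15 macrophage markers 14 fell (median −2.86), with a log2 summed signal of 12.87 to 13.53 in EGFP-low and 10.61 to 11.20 in EGFP-high cells, Itgam being under 5 in both. Of 12 fibroblast markers 6 fell (median −1.16), from 15.31 to 15.62 down to 15.05 to 15.13. Of the neutrophil markers 3 of 4 fell and of the endothelial markers 3 of 9, while 10 of 11 mitosis genes rose. None of the 5 lymphocyte, 5 pericyte, 2 muscle, 3 keratinocyte, 5 colon epithelium or 4 lung epithelium markers was called.

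**Figure D2:**
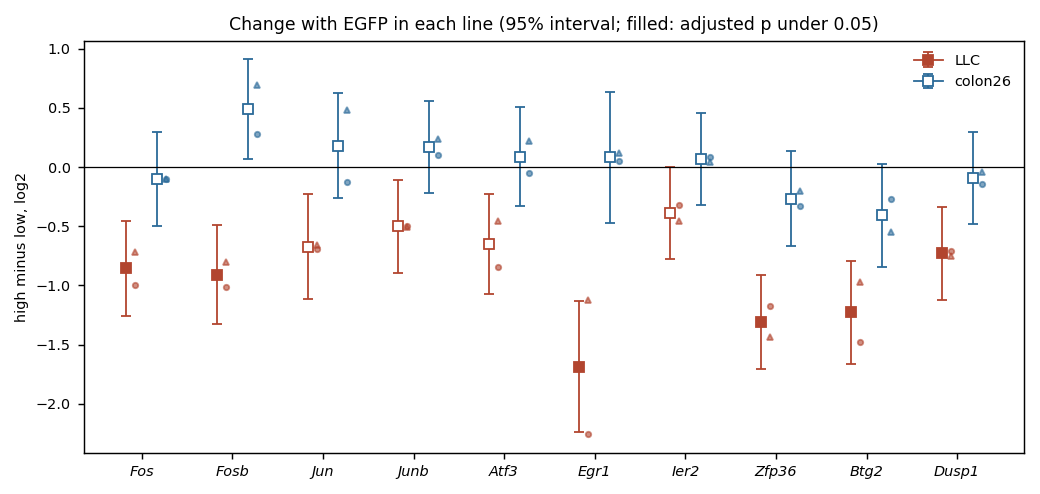
EGFP-high minus EGFP-low change of each member (log2) in LLC and colon26, as squares with the 95% interval from limma, filled where the adjusted p is under 0.05, and the change in each pair as small circles (number 1) and triangles (number 2). All LLC squares lie below 0, from −0.39 to −1.69, and the colon26 squares lie between −0.41 and 0.49.

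The change with EGFP differed between the lines for 2 members. The LLC change minus the colon26 change was −1.40 for Fosb (SE 0.27, limma adjusted p = 0.0358) and −1.77 for Egr1 (SE 0.35, limma adjusted p = 0.0409). Across all genes tested, 1.41% were called in this comparison. For all 10 members the LLC change lay below the colon26 change, as for 54.1% of all genes, and the median of the difference was −0.79, beside −0.04 for all genes. Fosb fell in both LLC pairs and was higher in both colon26 pairs. Egr1 started from very different levels in the lines, 13.25 ± 0.22 (SD, n = 2) in EGFP-low colon26 cells and 6.88 ± 0.87 (SD, n = 2) in EGFP-low LLC cells.

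For the other 8 members the difference did not pass the test. It was −1.04 for Zfp36 (limma adjusted p = 0.0914), −0.85 for Jun (0.217) and −0.82 for Btg2 (0.229). Fos, at −0.75, Atf3, at −0.74, Junb, at −0.67, and Dusp1, at −0.64, followed with adjusted p-values from 0.225 to 0.289, and Ier2 was at −0.45 (limma adjusted p = 0.436). The Fosb and Egr1 calls are sensitive to scaling: quantile normalization, which moved the median of all genes from −0.04 to 0.08, left no member called, with Fosb at −1.20 and Egr1 at −1.64. Median centring moved that median to −0.12 and added Zfp36 as a called member, at −1.12. The Fosb call was lost without any of the 4 pairs, and the Egr1 call without any pair but LLC number 2, with no sign turned.

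As a mean of both lines, Fos (−0.48), Egr1 (−0.80), Zfp36 (−0.79) and Btg2 (−0.82) fell, 4 of 10 members at limma adjusted p-values from 0.00268 to 0.0336, beside 13.0% of all genes called in either direction. Fos, Zfp36, Btg2 and Dusp1 were lower in all 4 pairs in the set used for each gene, as were 9.24% of all genes. The other Btg2 probe set was higher by 0.04 in the colon26 pair numbered 2. Its mean change of −0.33 did not pass (limma adjusted p = 0.164 with each probe set as its own unit). Dusp1, at −0.41, did not pass the threshold (limma adjusted p = 0.0555). Of these calls, only Zfp36 was kept when any 1 pair was left out. The Fos call was lost under median centring (limma adjusted p = 0.0635) and the Egr1 call under quantile normalization (limma adjusted p = 0.0726).

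The lines differed most in Egr1. Its level was 13.34 ± 0.17 (SD, n = 2) in EGFP-high and 13.25 ± 0.22 in EGFP-low colon26 cells, neighbours that did not differ beyond their spread, then 6.88 ± 0.87 in EGFP-low and 5.19 ± 0.07 in EGFP-high LLC cells. LLC minus colon26 was −6.38 in EGFP-low cells, colon26 being 83.1 times as high (SE 0.27, limma adjusted p = 1.3e-06), and −8.15 in EGFP-high cells (SE 0.27, limma adjusted p = 4.1e-07). The EGFP-high LLC arrays were close to the filter of 5, and all colon26 arrays were at the 99.6 percentile of all probe sets or higher. How far the ends of the measured range bound these sizes was not tested.

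In EGFP-low cells, 5 members were called between the lines, where 46.2% of all genes were. Jun (0.90, limma adjusted p = 0.00647) and Atf3 (0.80, limma adjusted p = 0.0148) were higher in LLC. Egr1, Btg2 (−1.70, limma adjusted p = 0.00605) and Zfp36 (−0.70, limma adjusted p = 0.0121) were lower, and Zfp36 was not called under median centring (limma adjusted p = 0.0593). Only the Egr1 call was kept without any 1 array: the Jun call was lost without LLC number 2, the Btg2 call without colon26 number 1, the Zfp36 call without either LLC array and the Atf3 call without either LLC array or colon26 number 2. Fos stood at 13.39 ± 0.07 in LLC and 13.39 ± 0.03 in colon26 (SD, n = 2 each), and LLC was higher by 0.18 under median centring. On these arrays Fos lay at the 99.7 percentile of all probe sets or higher, and how far the top of the measured range bounds this was not tested. Fosb was also level, at 9.31 ± 0.37 and 9.36 ± 0.59, a difference of −0.05 that became 0.14 under that centring, which moved the median of all genes from −0.07 to 0.12.

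In EGFP-high cells, 7 members were lower in LLC and none was higher, where 39.2% of all genes were called and 23.5% were called lower. Besides Egr1 these were Btg2 (−2.52), Zfp36 (−1.74), Fosb (−1.45), Dusp1 (−1.03), Junb (−1.02) and Fos (−0.75), with limma adjusted p-values from 0.000124 to 0.0102. The Fos call was lost without LLC number 1 or either colon26 array. Jun, Ier2 and Atf3 differed by −0.11 to 0.06 and did not pass. For Jun the other probe set gave 0.39 in EGFP-high cells, which did not pass, and 1.21 in EGFP-low cells, which did. With each probe set as its own unit the limma adjusted p-values were 0.152 and 0.00304. Of all probe sets 33.0% were called in EGFP-high and 41.8% in EGFP-low cells. The other Btg2 probe set, at 5.33 to 5.96 on all LLC arrays and 9.11 to 9.83 on all colon26 arrays, gave −3.71 in EGFP-low and −4.06 in EGFP-high cells, larger differences than the set used for the gene. The low ends of the arrays also differed by line, with a 1st percentile of 2.78 to 2.86 in LLC and 3.24 to 3.34 in colon26, and the labels do not say which arrays were normalized together.

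**Figure D3:**
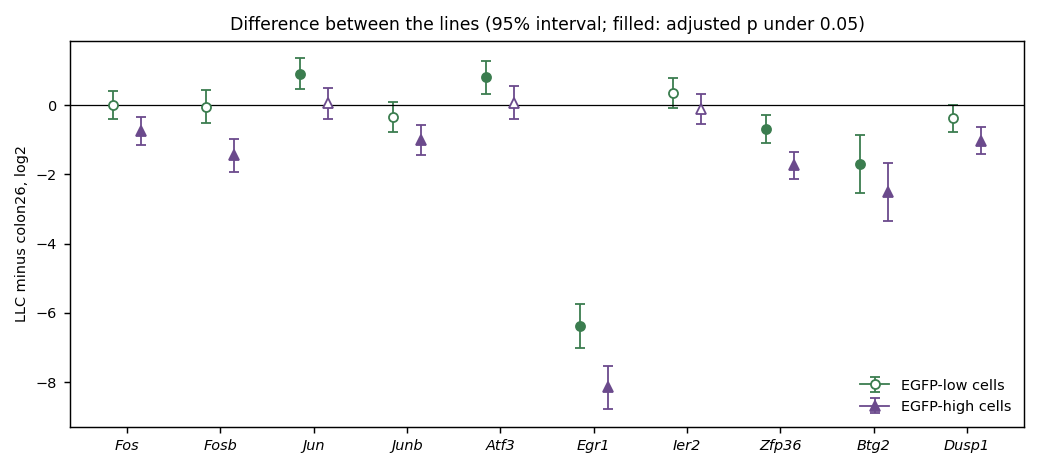
LLC minus colon26 (log2) for each member in EGFP-low cells (circles) and EGFP-high cells (triangles), with the 95% interval from limma and filled symbols where the adjusted p is under 0.05. Egr1 stands apart at −6.38 and −8.15, and the triangle lies below the circle for every member.

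The order of the 4 groups was not the same for all members. Zfp36 was highest in EGFP-low colon26 cells (10.60 ± 1.38, SD, n = 2), followed by EGFP-high colon26 (10.33 ± 1.47), EGFP-low LLC (9.90 ± 1.40) and EGFP-high LLC cells (8.59 ± 1.22). Jun was highest in EGFP-low LLC cells (12.55 ± 0.84), followed by EGFP-high LLC (11.88 ± 0.87), EGFP-high colon26 (11.83 ± 1.00) and EGFP-low colon26 cells (11.65 ± 0.57). Neighbouring means differed by less than the larger SD of the 2 groups in both orders, since that SD holds the gap between the numbers, and the fall of Zfp36 in LLC shows only within pairs. Ier2 means lay between 9.62 ± 2.10 and 10.01 ± 2.20, with no order beyond the spread. Fos in the EGFP-low groups and in EGFP-high colon26 cells lay between 13.28 ± 0.04 and 13.39 ± 0.07, and only EGFP-high LLC cells, at 12.53 ± 0.26, stood lower.

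Across all groups, the arrays numbered 2 gave far more signal than those numbered 1 for several members. Number 2 minus number 1 was 3.24 ± 0.23 for Ier2, 3.0 ± 0.22 for Junb, 1.94 ± 0.15 for Zfp36, 1.58 ± 0.31 for Atf3 and 1.43 ± 0.75 for Btg2 (SD over the 4 groups, log2). These gaps exceed the change with EGFP in either line for each of these genes, and the Ier2 and Junb gaps were larger than those of 99.8% and 99.7% of all genes, whose median size was 0.41. Jun (1.16 ± 0.26), Fosb (0.84 ± 0.31), Dusp1 (0.23 ± 0.16) and Fos (0.14 ± 0.16) followed. In all, 9 of the 10 members were higher on number 2 in every group, as were 30.5% of all genes, and Egr1 (−0.47 ± 0.52) was lower.

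The 2 Jun probe sets moved opposite ways between the numbers. The set used for the gene was higher on number 2 by 1.16, and the other changed by −0.85 ± 0.21 (SD, 4 groups). The other Btg2 set differed by 0.20 ± 0.41, against 1.43 for the set used. Yet within the pairs of LLC all 4 of these probe sets were lower in EGFP-high cells. The 3′ minus 5′ gap of the control probe sets moved with the number in the same arrays, and its part in the members' gaps was not tested.

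**Figure D4:**
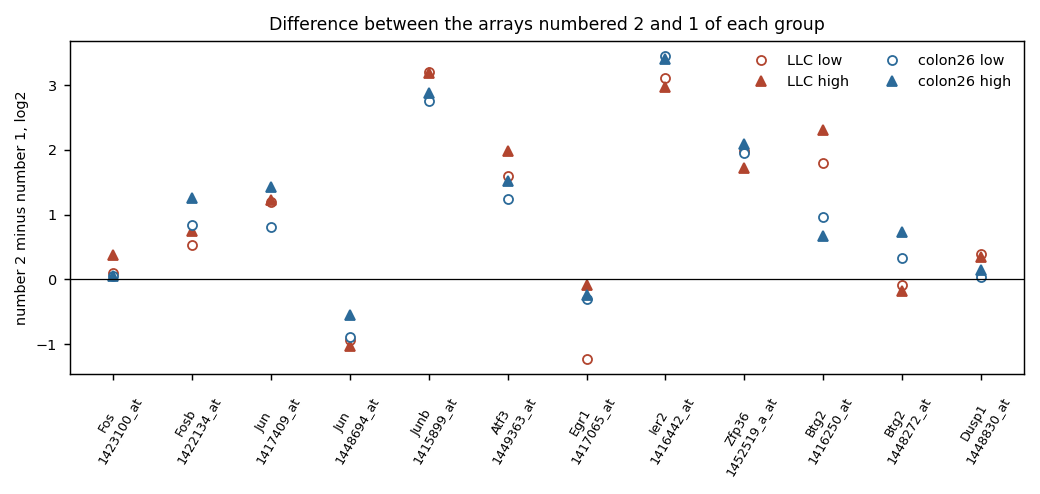
Signal on the array numbered 2 minus that on the array numbered 1 (log2) for each of the 12 probe sets in the 4 groups, open circles for EGFP-low and filled triangles for EGFP-high cells. Ier2 and Junb lie near 3 in all groups, and the probe sets of Jun lie on opposite sides of 0.

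Of 44 other immediate early genes, 12 fell in EGFP-high LLC cells, 1 rose and 31 were not called, where 11.0% of all genes were called and 6.04% were lower. Their median change was −0.39, beside 0.04 for all genes. Ptgs2, the inducible cyclooxygenase, fell by 2.22 (limma adjusted p = 0.000533), and Klf4, a zinc finger factor, fell by 1.72 (limma adjusted p = 0.000521). Nfkbiz, an atypical IkB protein, fell by 1.61 (limma adjusted p = 0.00115), and Fosl2, an AP-1 subunit, fell by 1.28 (limma adjusted p = 0.00159). The relatives of members Egr2, Egr3 and Zfp36l1 were among the 12, with Nr4a2, Tnfaip3, Bhlhe40, Crem and Ccn2. Fosl1, another AP-1 subunit, named after its value was seen, rose by 0.66 (SE 0.18, limma adjusted p = 0.0413). In colon26 1 of the 44 was called, Ccn2, which fell by 1.78 (limma adjusted p = 0.0448), and the median was 0.02, beside 0.08 for all genes. The pairs of Ccn2 were at −2.91 and −0.65, and its EGFP-high mean of 4.13 lay under the filter of 5. In the difference between the lines' changes 7 of the 44 were called, all with the lower change in LLC: Ptgs2 (−2.38), Egr3 (−1.86), Klf4 (−1.83), Nfkbiz (−1.52), Zfp36l1, Fosl2 and Tnfaip3. That difference called 1.41% of all genes, and the change with EGFP in colon26 called 3.77%.

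**Figure D5:**
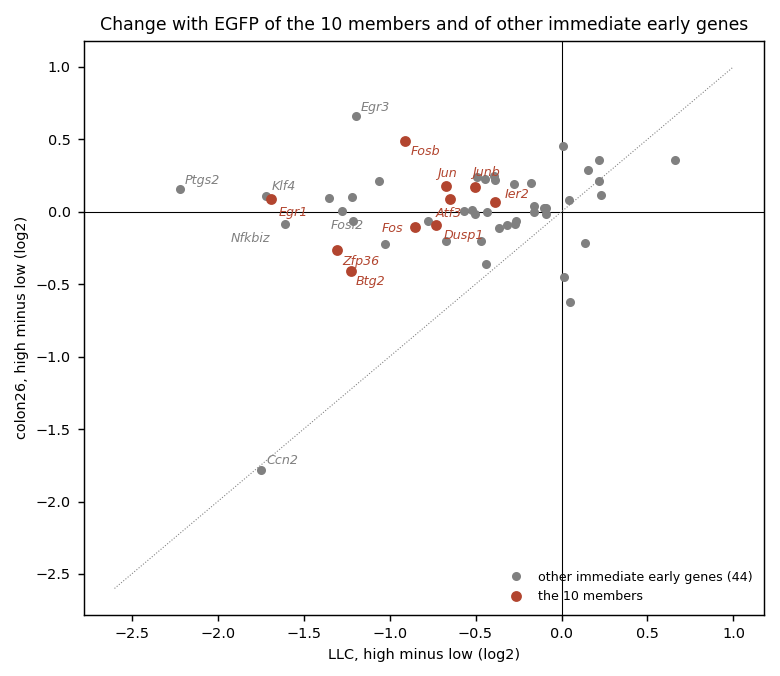
EGFP-high minus EGFP-low change (log2) in LLC (x axis) against colon26 (y axis) for the 10 members in red and 44 other immediate early genes in grey, with the dotted line where both changes are equal. All members lie left of 0 and above the dotted line, Ptgs2 and Klf4 lie further left, and Ccn2 is low in both lines.

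Between the lines, the other immediate early genes called were mostly lower in LLC, 17 of 44 against 8 higher in EGFP-low cells and 21 against 4 in EGFP-high cells. Of all genes, 25.2% were lower and 21.0% higher in LLC in EGFP-low cells, and 23.5% were lower and 15.7% higher in EGFP-high cells. Nr4a1, an orphan nuclear receptor, differed by −5.14 and −5.33 in EGFP-low and EGFP-high cells, and Klf4 by −4.0 and −5.83 (limma adjusted p = 8.6e-06 for Klf4 in EGFP-low cells and smaller for the rest). Plk2 and Egr2 were also called lower in LLC in both. Plk2 was at 9.71 and 9.93 in EGFP-low and EGFP-high colon26 cells and under 5 in LLC, at 4.66 and 4.22, and Egr2 was at 7.76 in EGFP-high colon26 and 4.58 in EGFP-high LLC cells. No size is given for Plk2, or for Egr2 in EGFP-high cells, since those LLC signals lay under the filter.

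Of 19 tested upstream kinases and factors that carry the signal to the members, none was called with EGFP in either line, and their medians were −0.01 in LLC and 0.08 in colon26. With EGFP, 11.0% of all genes were called in LLC and 3.77% in colon26. Elk3, an ETS partner of SRF, changed by 0.03 in LLC and 0.08 in colon26, and Nras by 0.00 and 0.38. Between the lines 9 of the 19 were called in EGFP-low cells, 7 higher and 2 lower in LLC, and 3 in EGFP-high cells, 2 higher and 1 lower. Among all genes 46.2% were called in EGFP-low and 39.2% in EGFP-high cells. The list was thus near that share in EGFP-low cells and below it in EGFP-high cells. Srf (1.00 in EGFP-low and 0.99 in EGFP-high cells) and the ETS factor Elk1 (1.12 and 1.04) were higher in LLC, and the p38 target kinase Mapkapk2 (−0.99 and −1.04) was lower. Of 14 feedback genes of the ERK pathway, the inhibitors Spry2 (−1.28, limma adjusted p = 0.0186) and Spry1 (−1.10, limma adjusted p = 0.0135) fell in LLC and none was called in colon26, with medians of −0.14 and 0.08. The LLC pairs differed, at −0.58 and −1.98 for Spry2 and −0.67 and −1.52 for Spry1. In colon26 the highest of these, Errfi1 and Ppp2r1a, changed by −0.01 and −0.07.

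Genes downstream of the members were described in the same way, beside 11.0% of all genes called with EGFP in LLC and 3.77% in colon26. Of 12 tested genes with known AP-1 sites, 6 fell in LLC, among them Mmp3, a matrix protease (−2.97), Fn1, fibronectin (−2.81), Il6 (−1.47) and Mmp9 (−1.05), with a median of −0.67. In colon26 Mmp13 (−1.69) and Il6 (−1.45) fell and the median was −0.23. Of 12 tested transcripts known to be bound by Zfp36, Ptgs2, Il6, Ccl2 (−1.77) and Vegfa (−0.87) fell in LLC, where Zfp36 also fell, and Cxcl2 (−2.63), Il1b (−1.81), Ccl3 (−1.64) and Il6 fell in colon26, where Zfp36 was not called. The medians were −0.58 and −0.21. Il6 in EGFP-high LLC cells (4.98) and Ccl3 in EGFP-high colon26 cells (4.08) lay under the filter of 5, and the colon26 pairs of Il1b were at −2.50 and −1.12. Fn1 and several of the chemokines are also made by fibroblasts and macrophages, and markers of both fell in the same comparisons. The part of such cells in these changes was not tested.

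Of 13 tested stress-induced partners of Atf3, Cebpb (−0.95) and Xbp1 (−0.83) fell in LLC and none was called in colon26, with medians of −0.28 and 0.03; Hspa5 and Atf4, the highest of them, changed by 0.03 and 0.35 in colon26. Of 14 tested heat shock genes, Hmox1 (−2.47), Bag3 (−0.82) and Hspb8 (−0.75) fell in LLC, with a median of −0.14. Hspa1a, an inducible Hsp70, fell in colon26 by 1.72 (limma adjusted p = 0.0011), to a mean of 4.96 under the filter of 5, and changed by −0.27 in LLC, with a colon26 median of 0.11 for the list. The shares of all genes called with EGFP were 11.0% in LLC and 3.77% in colon26. The limma calls with EGFP used the pair block. Without it none of the early, upstream, feedback, downstream and stress genes above was called in either line. Of the cell type markers 2 macrophage markers were, in colon26. Without the block no gene at all was called in LLC, and 0.0246% of all genes were in colon26.

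The genes whose pattern was most like the members' mean, over the 8 arrays with the mean of each number removed, were Osmr (r = 0.999), Ahr (r = 0.998), Susd6 (r = 0.997), Hcfc1r1 (r = 0.995) and Cep170b (r = 0.994), given with no p. The 8 arrays come from 2 lines and 4 pairs, so r mostly reflects the group means. Osmr, the oncostatin M receptor, was at 8.83 and 7.84 in EGFP-low and 6.09 and 5.61 in EGFP-high LLC cells. It was at 11.36 and 10.06 in EGFP-low and 11.16 and 10.14 in EGFP-high colon26 cells. Ahr, the aryl hydrocarbon receptor, was at 5.40 and 5.35 in EGFP-high LLC cells and at 11.28 and 10.12 in EGFP-high colon26 cells. With Egr1, whose gap between the lines is the widest, left out of the mean, a choice made after seeing the data, the 5 closest were Emilin2, B2m, Sema3a, App and Litaf (r from 0.987 to 0.994). Of the members, Dusp1 (0.977), Junb (0.970), Zfp36 (0.966) and Btg2 (0.960) were closest to the mean of all members, and Jun (−0.26), Atf3 (−0.22) and Ier2 (0.03) were far from it. Against the mean without Egr1, Dusp1 (0.976), Fos (0.969), Zfp36 (0.957) and Junb (0.928) were closest, Btg2 was at 0.889, and Jun (0.06), Atf3 (0.11) and Ier2 (0.26) were all above 0.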

How the data were processed

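Total RNA of sorted cells was extracted with Trizol, and biotinylated cRNA was hybridised to 1-colour Affymetrix arrays, per the labels' protocols. The authors deposited log2 values per probe set, summarised by RMA per the submitters' processing notes. The version and options of RMA, and where each probe set lies in its transcript, were not stated. Genes were named from the platform annotation. 34945 probe sets carried 1 symbol, 932 several and 9160 none; 64 were controls. For each gene the brightest probe set on average was used, and 12177 genes above 5 on at least 2 arrays were tested; each of 25626 probe sets was also fitted as its own unit.

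limma 3.58.1 (R 4.3.3) was run on all 8 arrays with moderated variances, and p-values were adjusted by Benjamini-Hochberg over all genes, with a threshold of 0.05. EGFP-high minus EGFP-low, its mean over the lines and its difference between them used the pair (line and number) as a block, which left 2 residual degrees of freedom. LLC minus colon26 used the number as a block, which left 3. The pairing rests on the replicate numbers in the labels and on their shared deviations (r 0.89 within LLC, 0.84 within colon26). Between the lines r was 0.74 to 0.84, so shared deviations alone do not set the colon26 pairs apart from arrays of the same number in LLC. The number of arrays, 2 per group, limits the precision. The fits were run on data simulated from the same models, which cannot test the pairing, the normalization or the RNA representation. Figures used Python 3.11.15 and matplotlib 3.10.9.

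The members, gene lists and tests were chosen with earlier results of these data known. The rule for named genes was all 10 members with every probe set, and of each list up to 4 called genes with the smallest p per comparison, or else its 2 brightest genes, Gins1, and the 5 genes most like the members' mean. Names outside it are said to be chosen after their values were seen, or complete a count. Alternatives were no pair block, the number as block, no filter, a filter of 7, quantile normalization, median centring, trend and robust moderation, the mean of a gene's probe sets, every probe set, 1 line alone, and leaving out each pair or array.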

Additional observations from a re-analysis of the deposited data

Results flagged for a closer look

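The change with EGFP differed between the lines by a test of the difference itself for Fosb and Egr1. For Fosb the LLC change minus the colon26 change was −1.40 (SE 0.27, limma adjusted p = 0.0358). Its LLC pairs were at −1.02 and −0.80 and its colon26 pairs at 0.28 and 0.70. For Egr1 it was −1.77 (SE 0.35, limma adjusted p = 0.0409). Its LLC pairs were at −2.26 and −1.12 and its colon26 pairs at 0.05 and 0.12. Over the alternatives the adjusted p ran from 0.00497 to 1.0 for Fosb and from 0.000791 to 1.0 for Egr1, with no change of sign, and each was called in 4 of 13.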

How the results depend on the processing

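Without the replicate block that pairs EGFP-high with EGFP-low arrays, limma called 0 members in LLC (6 with it) and 0 in the mean of the lines (4). It called 0 in the difference between the lines' changes (2), 1 between the lines in EGFP-low (5) and 2 in EGFP-high cells (7). Of all genes, none was called without the block in LLC or in the difference, and 0.0575% were in the mean. Between the lines 14.0% of all genes were called in EGFP-low and 11.3% in EGFP-high cells. With the replicate block of the number shared by the lines, 5 were called in LLC, 2 in the mean and 0 in the difference. The difference also had 0 with no filter, 0 under quantile normalization, 1 with the mean of a gene's probe sets, 0 with every probe set and 6 under trend and robust moderation. Leaving out 1 pair or array gave 2 to 3 called in LLC when the pair was from LLC and 5 when from colon26, 1 to 3 in the mean, 0 to 1 in the difference, 2 to 5 between the lines in EGFP-low and 6 to 7 in EGFP-high cells. Where a line is left with 1 pair, its spread is taken from the other line. In colon26 0 members were called under each alternative.

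No called member changed sign under any alternative. Members that were not called turned as follows. In colon26, quantile normalization took Ier2 to −0.057 and Atf3 to −0.050, and leaving out 1 pair gave −0.13 to 0.49 for Jun and −0.046 to 0.22 for Atf3. Between the lines in EGFP-low cells, Fos became 0.015 under quantile normalization and 0.18 under median centring, and lay between −0.063 and 0.063 without 1 array; Fosb became 0.14 under median centring and lay between −0.26 and 0.16 without 1 array. In EGFP-high cells, Ier2 became 0.0013 under median centring and, without 1 array, lay between −0.28 and 0.064; Jun lay between −0.12 and 0.22 and Atf3 between −0.21 and 0.33. The causes were not tested. In LLC all 10 members kept their sign under each of 14 alternatives, and Zfp36 was called in 13 of them. Jun and Atf3, not called in the main LLC fit, were each called in 3 of the 14. These were a filter of 7, trend and robust moderation, and the mean of a gene's probe sets. Single-array signals near 5, as for Egr1 and Btg2 in EGFP-high LLC cells, are close to the filter.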

Other observations

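Hspa1a went the opposite way to Egr1 between the lines. Its log2 level was 10.19 ± 2.32 (SD, n = 2) in EGFP-low and 9.92 ± 1.91 in EGFP-high LLC cells, against 6.68 ± 0.06 and 4.96 ± 0.06 in colon26, and its LLC change exceeded its colon26 change by 1.45 (limma adjusted p = 0.0379). Hmox1, the stress-induced haem oxygenase, had an LLC change minus colon26 change of −2.23 (limma adjusted p = 0.0131). Errfi1, a feedback inhibitor of the EGF receptor, was at 13.28 ± 0.31 in EGFP-low colon26 and 11.44 ± 0.31 in EGFP-low LLC cells (limma adjusted p = 6.3e-05), and changed by 0.01 with EGFP in LLC and −0.01 in colon26. Myc, which also belongs to the early response, was higher in LLC by 1.42 in EGFP-low and by 1.43 in EGFP-high cells, against the direction of most of the other immediate early genes that were called. These genes were chosen after their values were seen.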
